A study of Mus musculus with 6 samples.

Results

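The genes described here belong to families that dock, prime and fuse insulin granules at the plasma membrane. Some of the genes act on other membranes or are better known from other cells. The families are the SNARE proteins (syntaxins, SNAP and VAMP proteins), their binding proteins, and the Munc13, RIM and complexin regulators. They also include the synaptotagmins and synaptotagmin-like proteins, and the Rab3 and Rab27 GTPases. Members were all rows of the deposited count table whose symbols start with Syt, Sytl, Stx, Stxbp, Snap, Vamp, Unc13, Rims or Cplx plus a number or letter, the Rab3 and Rab27 isoforms, Rph3al and Nsf. This gave 77 of 24421 genes. The name pattern also took in Snap91, a clathrin adaptor that is not a SNARE, and the pseudogene row Stxbp3-ps.

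RNA was sequenced from isolated pancreatic islets of mice on a C57BL/6J background, in 3 libraries whose labels name a Dhps knockout in β cells and 3 control libraries. Dhps encodes deoxyhypusine synthase, which modifies the translation factor eIF5A. The knockout genotype was given as C57.DhpsloxP.MIP1-CreERT, a floxed Dhps allele with a tamoxifen-inducible Cre recombinase under a mouse insulin promoter, so that deletion is directed to β cells and the other islet cells keep the gene. The labels gave neither the age of the mice nor the meaning of the prefix HF in the sample names, and did not say whether the controls carried Cre or received tamoxifen. Nor did they tie each library to an animal of its own. The p-values therefore describe variation among the libraries, which may be technical.

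Insulin granules fuse with the plasma membrane when a VAMP protein on the granule zips into a complex with a syntaxin and a SNAP protein on the plasma membrane. Munc18 proteins (Stxbp genes) hold the syntaxin, Munc13 proteins (Unc13 genes) open it, and synaptotagmins sense the calcium that triggers fusion. Rab3 and Rab27 on the granule recruit effectors, among them granuphilin (Sytl4) and Noc2 (Rph3al), which attach granules to the membrane before priming. Many of these genes have a paralogue that is better known from acinar cells, blood cells or epithelia.

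Libraries held 21027737 to 22649734 counts in the knockout-labelled group and 23013290 to 23249895 in the controls. Dhps itself did not separate the labels: it had 11.7, 12.7 and 11.4 CPM (counts per M, with TMM-scaled library sizes) in knockout-labelled libraries 1 to 3, against 12.03, 13.4 and 12.3 CPM in the controls. Its log2 fold change was -0.07 ± 0.12 (SE, 95% interval -0.34 to 0.20, edgeR adjusted p = 0.742). The exact two-sided permutation p was 0.4, where 0.1 is the smallest possible. The count covers all exons of the gene, sums over all cells of the islets and overlaps Wdr83, so it cannot show whether some exons were lost, or in which cells. For that reason the groups are called by their labels throughout. The islet identity of the RNA was plain in every library, with the 6 hormone genes taking 46.3% to 48.2% of knockout-labelled counts and 44.9% to 51.9% of control counts.

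Several marker lists of other cell types took a larger share of the knockout-labelled libraries. The 24 acinar markers took 3.26% to 3.59% of counts in the knockout-labelled libraries and 0.136% to 1.29% in the controls, where control 3 was lowest. The 21 tested acinar markers all differed upwards (median log2 fold change 1.97). Of these, 19 had an unadjusted edgeR p under 0.05, while 0 passed after adjustment with edgeR, 0 with DESeq2 and 2 with limma-voom. The 15 macrophage and myeloid markers took 0.0293% to 0.0420% of knockout-labelled counts and 0.0178% to 0.0216% of control counts, and 7 rose. The 12 stromal markers took 0.0451% to 0.0634% of knockout-labelled counts and 0.0163% to 0.0469% of control counts, ranges that overlapped, and 5 rose. The 9 markers of other endocrine cells took 6.90% to 7.50% and 5.21% to 6.02% in knockout-labelled and control libraries, and 2 rose. The 8 Schwann and neural markers took 0.00350% to 0.00488% in knockout-labelled and 0.00364% to 0.00405% in control libraries, overlapping, and 0 rose. The 9 duct markers took 0.0734% to 0.112% in knockout-labelled and 0.0634% to 0.0711% in control libraries, and 1 rose. The 11 endothelial markers took 0.0508% to 0.0652% in knockout-labelled and 0.0365% to 0.0541% in control libraries, overlapping, and 4 rose. The 11 lymphocyte markers took 0.00781% in knockout-labelled library 2, 0.000989% and 0.00195% in knockout-labelled libraries 1 and 3, and 0.00122% to 0.00199% in the controls, and 1 of the 9 tested rose. No marker of these lists was at 0 in all libraries. The 12 β cell markers took 39.9% to 41.5% of knockout-labelled counts and 40.4% to 46.5% of control counts; 6 of them fell, 0 rose and the median log2 fold change was -0.69. The part of these shifts in the results on the exocytosis genes was not tested, and in such bulk samples fewer cells of a type and less RNA per cell cannot be told apart.

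Of the 77 members, 66 had enough counts to be tested, 4 had no count in any library, and the other 7 were too low. In the knockout-labelled islets 5 of the 66 fell, among them Sytl4, Rims3, Syt14 and Rph3al, and 1 rose, Vamp1 (edgeR's quasi-likelihood test, adjusted p under 0.05 over all 13736 genes tested). These 6 are 9.09% of the tested members, where 6.76% of all tested genes passed in either direction. By direction, 2.63% of all tested genes fell and 4.14% rose. The median log2 fold change over tested members was -0.06, against 0.01 over all tested genes, with 41 members negative and 25 positive. Every knockout-labelled library lay below every control for 16 members (24.2%, against 15.2% of all tested genes) and above every control for 6 (9.09%, against 16.9%).

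The counts of 5 and 1 rested on most of the single libraries. Without knockout-labelled library 1, without control 2 or without control 3, edgeR called 0 members in either direction, with 11, 9 and 12 members lower and 4, 5 and 4 higher at an unadjusted p under 0.05. Without knockout-labelled library 3, Rims3 and Vamp1 were called, and without control 1, Sytl4, Rims3 and Rph3al were. Without knockout-labelled library 2, Sytl4, Rims3, Syt14 and Vamp1 were called again, with Rab27a and Cplx1 in addition. In the same 3 fits with no member called, the number of all genes called dropped to 64, 99 and 216, against 929 with all libraries. Those fits had 2964 of 13935, 2885 of 13990 and 2835 of 13997 tested genes at an unadjusted p under 0.05.

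**Figure D1:**
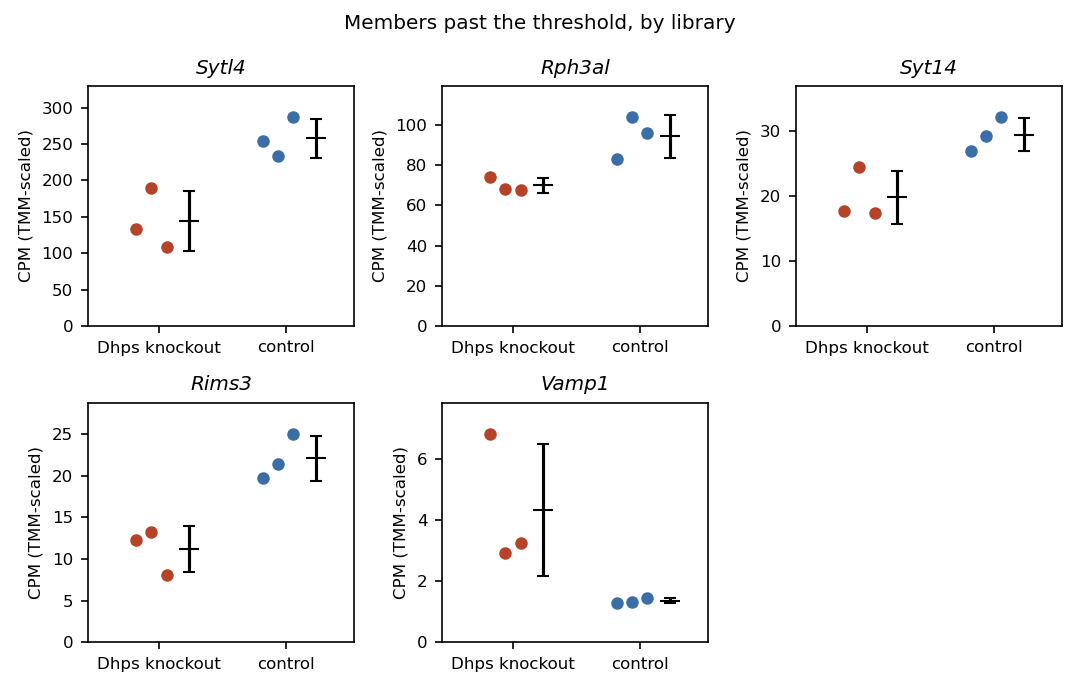
TMM-scaled CPM (y axis, linear, from 0) of 5 members past the threshold, with knockout-labelled libraries left of controls, a point per library, and the mean ± SD over 3 libraries beside them. The groups do not overlap in any panel, and knockout-labelled library 1 stands alone at 6.82 CPM for Vamp1.

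Sytl4 lies on chromosome X from 133936385 to 133981812, Rph3al on chromosome 11 from 75830992 to 75925891, Syt14 on chromosome 1 from 192891234 to 193035775, Rims3 on chromosome 4 from 120877869 to 120891560 and Vamp1 on chromosome 6 from 125215581 to 125222306 (mm10, counted exons). None of these 5 shared exon sequence positions with another listed gene.

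Promoter sequence is given for 4 of the 6 called members, those whose RefSeq start coincides with the start of the counted gene model, so that the regions upstream of the genes that moved can be read. Each window runs from 250 bases before to 50 after the RefSeq start (GRCm38.p6, the same assembly as mm10), 5′ to 3′ on the gene's strand. Capitals mark matches, on either strand, to the motifs searched. These were TGACGTCA, the cyclic AMP response element, and CAGATG, an E-box form bound by NEUROD1. TGTTTAC, the forkhead core, and TTCAGCACC, the left part of the REST site, were also searched. The remaining motifs were the GC box, spelled GGGCGG, and the CCAAT box, whose name is its sequence. No motif in the list contains another.
Sytl4 promoter, chrX:133981763-133982062, strand minus: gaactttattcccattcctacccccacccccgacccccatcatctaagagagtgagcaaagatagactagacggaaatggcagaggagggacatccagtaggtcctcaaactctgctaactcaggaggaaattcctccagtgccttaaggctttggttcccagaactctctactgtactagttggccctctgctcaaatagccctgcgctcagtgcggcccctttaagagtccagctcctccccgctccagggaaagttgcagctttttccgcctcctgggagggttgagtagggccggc
Rph3al promoter, chr11:75925842-75926141, strand minus: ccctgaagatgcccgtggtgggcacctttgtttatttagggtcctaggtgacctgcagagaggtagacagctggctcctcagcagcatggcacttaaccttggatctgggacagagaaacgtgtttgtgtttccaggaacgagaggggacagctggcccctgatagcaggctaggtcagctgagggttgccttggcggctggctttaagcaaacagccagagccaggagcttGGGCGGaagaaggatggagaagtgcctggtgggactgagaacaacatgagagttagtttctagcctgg
Syt14 promoter, chr1:193035726-193036025, strand minus: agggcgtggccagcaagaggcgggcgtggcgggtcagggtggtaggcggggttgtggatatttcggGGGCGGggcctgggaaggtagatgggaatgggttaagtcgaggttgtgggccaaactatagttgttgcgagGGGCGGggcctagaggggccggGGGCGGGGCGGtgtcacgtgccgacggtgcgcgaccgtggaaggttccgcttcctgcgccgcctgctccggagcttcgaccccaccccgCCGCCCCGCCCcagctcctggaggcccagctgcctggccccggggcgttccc
Vamp1 promoter, chr6:125215331-125215630, strand plus: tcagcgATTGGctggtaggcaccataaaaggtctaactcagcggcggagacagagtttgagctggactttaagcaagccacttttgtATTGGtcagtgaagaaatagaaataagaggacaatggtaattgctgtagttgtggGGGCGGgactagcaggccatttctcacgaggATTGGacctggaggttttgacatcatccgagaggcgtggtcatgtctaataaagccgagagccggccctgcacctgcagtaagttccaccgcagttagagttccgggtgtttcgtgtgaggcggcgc

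The Sytl4 window held none of these letter runs. Syt14 held 6 GC box matches, some sharing a base with a neighbour, Rph3al 1, and Vamp1 1 together with 3 CCAAT boxes. GC boxes occurred in 64.8% of the 71 windows of the 58 members in the RefSeq table, and in 35.7% of all 32851 windows. CCAAT boxes occurred in 31.0% of member windows and 37.4% of all windows, and the E-box form in 7.04% of member windows and 17.2% of all windows. The cyclic AMP response element was in 1.41% of member windows and 1.79% of all, the forkhead core in 2.82% of member windows and 3.65% of all, and the REST site part in 1.41% of member windows and 0.371% of all. A match describes the letters alone. For Rims3 the RefSeq start lies 23070 bp upstream of the first counted exon, so its window is not shown. For Rph3al the exons of the GENCODE vM21 annotation reach upstream to 75938429, beyond the start at 75925891 used for its window. The region before that upstream end was not searched.

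Among docking genes Sytl4 fell, the gene of the granule-docking effector granuphilin, which binds Rab27a and syntaxin. Sytl4 had 133, 189 and 109 CPM in knockout-labelled libraries 1 to 3, against 254, 233 and 287 CPM in controls 1 to 3. All 3 knockout-labelled values lay below the lowest control, and they spread more widely among themselves (mean 144 CPM, SD 41.2) than the controls did (mean 258 CPM, SD 27.1). On the log2 scale the fold change came to -0.84 ± 0.19 (SE, adjusted p = 0.0329 by edgeR). It lay between -1.10 and -0.68 when any single library was left out, with an adjusted p of 0.107 without knockout-labelled library 1, 0.0655 without library 3, 0.0833 without control 2 and 0.0916 without control 3. Rab27a, its GTPase partner, had 82.2, 112 and 96.6 CPM in the knockout-labelled libraries, against 127, 127 and 155 CPM in the controls. The groups did not overlap there either, but Rab27a missed the threshold (log2 fold change -0.49 ± 0.13, adjusted p = 0.0538 by edgeR). DESeq2 gave it an adjusted p of 0.00722, and edgeR gave 0.0281 with no expression filter and 0.0374 without knockout-labelled library 2. In the other fits with a library left out, edgeR's adjusted p for Rab27a lay between 0.0624 and 0.161, and its log2 fold change was -0.39 without knockout-labelled library 1.

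Rph3al encodes Noc2, an effector of Rab3 and Rab27 on endocrine granules. It had 74.0, 68.2 and 67.5 CPM in the knockout-labelled libraries, against 83.0, 104 and 96.2 CPM in the controls. The groups did not overlap, knockout-labelled library 1 and control 1 being nearest to each other, and the log2 fold change was -0.43 ± 0.11 (SE, adjusted p = 0.0423 by edgeR). That p was 0.0501 with upper-quartile factors, 0.0946 without knockout-labelled library 1, 0.0805 without library 2, 0.0954 without library 3, 0.132 without control 2 and 0.108 without control 3.

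The Rab3 GTPases, which ride on secretory granules, did not pass the test. Rab3a, the neuronal and endocrine form, had 69.2, 78.8 and 80.8 CPM in the knockout-labelled libraries, against 86.3, 82.0 and 100.2 CPM in the controls (log2 fold change -0.23 ± 0.11, edgeR adjusted p = 0.208). Its exons overlap those of Mpv17l2. Rab3b had 51.1, 49.9 and 54.3 CPM in knockout-labelled libraries, against 58.8, 88.9 and 55.9 CPM in controls, a difference carried largely by control 2 (-0.39 ± 0.16, edgeR adjusted p = 0.162, and -0.16 without control 2). In both genes the groups lay close together without overlapping. Rab3d, known from zymogen granules of acinar cells, had 246, 249 and 366 CPM in the knockout-labelled libraries, against 253, 179 and 240 CPM in the controls, so the groups overlapped (0.36 ± 0.18, edgeR adjusted p = 0.245). Without knockout-labelled library 3 the Rab3d log2 fold change was 0.14, and without control 2 it was 0.20. Rab27b, the other Rab27 isoform, known from secretory cells including acinar cells, had 6.86, 5.40 and 4.11 CPM in knockout-labelled libraries, against 2.68, 3.67 and 2.10 CPM in controls. Every knockout-labelled library lay above every control for Rab27b, without passing the threshold (0.96 ± 0.28, edgeR adjusted p = 0.067). DESeq2 gave it 0.0213 and edgeR with no expression filter 0.0498, while edgeR's adjusted p lay between 0.0737 and 0.204 with single libraries left out.

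Among regulators of priming, Rims3 fell. Its product is a short RIM-family protein of the presynaptic active zone. Rims3 had 12.2, 13.3 and 8.08 CPM in the knockout-labelled libraries, against 19.8, 21.4 and 25.04 CPM in the controls. It was the fall of greatest size among the called members, with a log2 fold change of -0.98 ± 0.18 (SE, adjusted p = 0.0211 by edgeR), and the groups stood well apart. Its adjusted p was 0.0681 without knockout-labelled library 1, 0.0757 without control 2 and 0.0652 without control 3. The exons counted for Rims3 sum to 977 bp, whereas all its exons in GENCODE vM21 sum to 7972 bp, so its counts stand for a small part of the annotated gene. Rims2, the RIM protein that links granules to Rab3 and calcium channels in β cells, had 15.4, 18.1 and 16.6 CPM in knockout-labelled libraries, against 17.9, 25.5 and 21.3 CPM in controls. These groups overlapped slightly and the difference did not pass (-0.37 ± 0.14, edgeR adjusted p = 0.135). Rims1 and Rims4 were too low to test.

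For the Munc13 genes that serve neurons and β cells, the groups overlapped. Unc13a had 18.0, 14.8 and 18.8 CPM in the knockout-labelled libraries, against 18.4, 14.6 and 21.4 CPM in the controls (log2 fold change -0.08, 95% interval -0.43 to 0.27). Unc13b, the more abundant form per kb of deposited exon, differed by -0.06 with an interval from -0.34 to 0.22. That order rests on deposited lengths of 6391 bp for Unc13b and 7960 bp for Unc13a. GENCODE vM21 lists 22746 bp for Unc13b and 12623 bp for Unc13a, so the order depends on the gene models. Unc13d, known from the granules of cytotoxic and other blood cells, was scarce, with 11, 26 and 11 counts in the knockout-labelled libraries, against 2, 4 and 7 counts in the controls. It did not pass the test (2.02 ± 0.62, edgeR adjusted p = 0.074), and the myeloid markers given above were also higher in those libraries. Its highest count and the highest lymphocyte share were both in knockout-labelled library 2, and the part of either list was not tested. Unc13c had 1 count in control 3 and none elsewhere.

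Complexins clamp and release the assembled SNARE complex. Cplx2 was the main form, with 46.0, 47.4 and 47.9 CPM in the knockout-labelled libraries, against 56.0, 73.1 and 48.5 CPM in the controls. Control 3 lay just above the highest knockout-labelled value, and the difference did not pass (log2 fold change -0.33 ± 0.14, edgeR adjusted p = 0.17). Without control 2 the log2 fold change of Cplx2 was -0.16. Cplx1 had 5.76, 1.46 and 4.01 CPM in knockout-labelled libraries, against 2.27, 1.83 and 1.38 CPM in controls, with knockout-labelled library 2 among the controls (1.04 ± 0.45, edgeR adjusted p = 0.176). Without knockout-labelled library 2, Cplx1 passed the threshold at 1.41 (edgeR adjusted p = 0.0414), and without library 1 it stood at 0.58 (adjusted p = 0.513). Cplx3, named after its values were seen, had 2, 5 and 0 counts in the knockout-labelled libraries, against 10, 22 and 27 counts in the controls. It was too low for the main test, and edgeR with no expression filter called it lower.

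Stxbp2, a Munc18 gene of epithelia and blood cells, had 37.1, 38.2 and 38.9 CPM in knockout-labelled libraries, against 37.7, 45.8 and 44.5 CPM in controls, overlapping with control 1 (-0.17 ± 0.10, edgeR adjusted p = 0.339).

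The synaptotagmins were dominated by a single gene. Syt13, an atypical synaptotagmin of endocrine islet cells, was the member with the highest level per kb in both groups, at 269 ± 36.8 RPKM (CPM per kb of exon) in the knockout-labelled libraries and 332 ± 23.1 RPKM in the controls (SD, n = 3 each). It made up 74.3% of the summed level per kb of the 17 synaptotagmin genes. It stood at 863, 1027 and 1137 CPM in knockout-labelled libraries, against 1152, 1256 and 1324 CPM in controls, where each knockout-labelled library lay below each control without passing the test (log2 fold change -0.30 ± 0.15, edgeR adjusted p = 0.227).

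Of the synaptotagmins linked to insulin release, Syt7, Syt9, Syt5 and Syt4 did not pass edgeR's test. Syt7, a high-affinity sensor, had 61.4, 62.2 and 82.1 CPM in the knockout-labelled libraries, against 74.1, 73.9 and 68.6 CPM in the controls (log2 fold change -0.08, 95% interval -0.35 to 0.20). Syt9 had 17.1, 19.8 and 27.7 CPM in knockout-labelled libraries, against 20.2, 19.0 and 17.8 CPM in controls (0.18, interval -0.19 to 0.55). For both genes knockout-labelled library 3 was the highest of all 6. Knockout-labelled libraries 1 and 2 lay below every control for Syt7, which stood at -0.23 without library 3 (edgeR adjusted p = 0.200), while for Syt9 library 2 lay among the controls. Syt5 showed the same library on top, with 48.2, 51.6 and 75.8 CPM in knockout-labelled libraries, against 59.5, 32.9 and 38.5 CPM in controls (0.42 ± 0.23, edgeR adjusted p = 0.263). Syt4, whose protein lowers the calcium sensitivity of release in maturing β cells, had 131, 151 and 142 CPM in knockout-labelled libraries, against 188, 113 and 155 CPM in controls, with the controls spread on both sides of the knockout-labelled libraries (-0.10 ± 0.16, edgeR adjusted p = 0.734).

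Syt14 was the synaptotagmin that fell. Its protein is a synaptotagmin thought not to bind calcium. Syt14 had 17.6, 24.4 and 17.3 CPM in the knockout-labelled libraries, against 26.9, 29.1 and 32.0 CPM in the controls, with knockout-labelled library 2 nearest to the controls. The log2 fold change was -0.57 ± 0.15 (SE, adjusted p = 0.0482 by edgeR). Its adjusted p was 0.0557 with upper-quartile factors, 0.143 without knockout-labelled library 1, 0.121 without library 3, 0.0509 without control 1, 0.127 without control 2 and 0.136 without control 3. Syt2 and Syt15, named after their values were seen, also had groups that did not overlap without passing the test: Syt2 had 2.55, 2.77 and 1.73 CPM in knockout-labelled libraries, against 4.03, 3.83 and 4.35 CPM in controls (-0.79 ± 0.26, edgeR adjusted p = 0.0901), and Syt15 differed the other way (1.16 ± 0.45, edgeR adjusted p = 0.135).

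The SNAREs best known from insulin granule fusion, Snap25, Stx1a and Vamp2, did not pass the test. Snap25, the SNAP protein of neurons and β cells, had 89.5, 87.6 and 91.9 CPM in the knockout-labelled libraries, against 99.8, 82.6 and 79.7 CPM in the controls. The knockout-labelled values sat inside the range of the controls, with a log2 fold change of 0.04 and a 95% interval from -0.20 to 0.27. Stx1a, the syntaxin of regulated release, had 6.51, 8.41 and 6.45 CPM in knockout-labelled libraries, against 7.54, 7.83 and 8.78 CPM in controls (-0.18, interval -0.55 to 0.20). Vamp2, the granule VAMP, had 186, 165 and 154 CPM in knockout-labelled libraries, against 188, 186 and 207 CPM in controls (-0.20, interval -0.44 to 0.04). Vamp2 values were lower in knockout-labelled libraries 2 and 3 than in any control, while library 1 lay among the controls. None of the 5 Snap genes passed with edgeR, DESeq2 or limma-voom, and 0 had an unadjusted edgeR p under 0.05. Of the 13 tested syntaxins edgeR called 0, with 1 lower and 1 higher at an unadjusted p under 0.05, and DESeq2 called 1, Stx11. Over all 13736 tested genes edgeR called 929, DESeq2 1702 and limma-voom 891, and 3642 had an unadjusted edgeR p under 0.05. No test set these small counts against those shares.

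Vamp1, the member that rose, encodes a VAMP best known from neurons of the spinal cord and brainstem. It had 155, 62 and 64 counts in the knockout-labelled libraries, against 28, 32 and 37 counts in the controls. This was 6.82, 2.91 and 3.25 CPM in knockout-labelled libraries, against 1.30, 1.33 and 1.46 CPM in controls, so library 1 stood more than 2-fold above the other knockout-labelled libraries. The log2 fold change was 1.66 ± 0.37 (SE, adjusted p = 0.0330 by edgeR), and 1.17 without knockout-labelled library 1 (adjusted p = 0.104). The call was also lost without control 1 (0.0545), control 2 (0.112) and control 3 (0.0891), and limma-voom gave 0.0509. Even in the knockout-labelled libraries its level per kb, 1.37 ± 0.686 RPKM, was far below the 77.9 ± 7.50 RPKM of Vamp2.

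Stx11, a syntaxin of blood cells, was the tested syntaxin with the greatest difference. It had 6.95, 9.68 and 6.81 CPM in the knockout-labelled libraries, against 3.89, 1.71 and 5.06 CPM in the controls, with groups that did not overlap. It did not pass by edgeR (log2 fold change 1.13 ± 0.34, adjusted p = 0.0693), while DESeq2 gave 0.011 and edgeR with no expression filter 0.0382. With single libraries left out edgeR's adjusted p lay between 0.0719 and 0.160. Its highest value was in knockout-labelled library 2, the library that also held the highest myeloid and lymphocyte shares, 0.0420% and 0.00781% of counts. The part of these shares in the Stx11 values was not tested.

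SNAREs of the endosome, Golgi and endoplasmic reticulum and the recycling ATPase Nsf act away from granule fusion at the plasma membrane or serve all SNAREs. None of the 12 tested was called by edgeR, DESeq2 or limma-voom, with 2 lower and 0 higher at an unadjusted edgeR p under 0.05, and their median log2 fold change was -0.02. Over all tested genes edgeR called 6.76%, and 3642 of 13736 had an unadjusted p under 0.05, so these counts do not set the 12 genes apart. Nsf, which takes spent SNARE complexes apart, had 77.0, 87.9 and 86.8 CPM in the knockout-labelled libraries, against 87.2, 76.2 and 87.1 CPM in the controls (0.01, 95% interval -0.22 to 0.23). Snap47, a SNAP protein with broad expression, differed by as little (-0.03, interval -0.24 to 0.18). Stx7, an endosomal syntaxin, lay lower in all 3 knockout-labelled libraries, with 86.7, 94.5 and 83.1 CPM in knockout-labelled libraries, against 103, 105 and 100.3 CPM in controls, without passing (-0.22 ± 0.09, edgeR adjusted p = 0.16). Vamp4 of the trans-Golgi network, named after its values were seen, showed the same order (-0.34 ± 0.11, edgeR adjusted p = 0.0804).

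**Figure D2:**
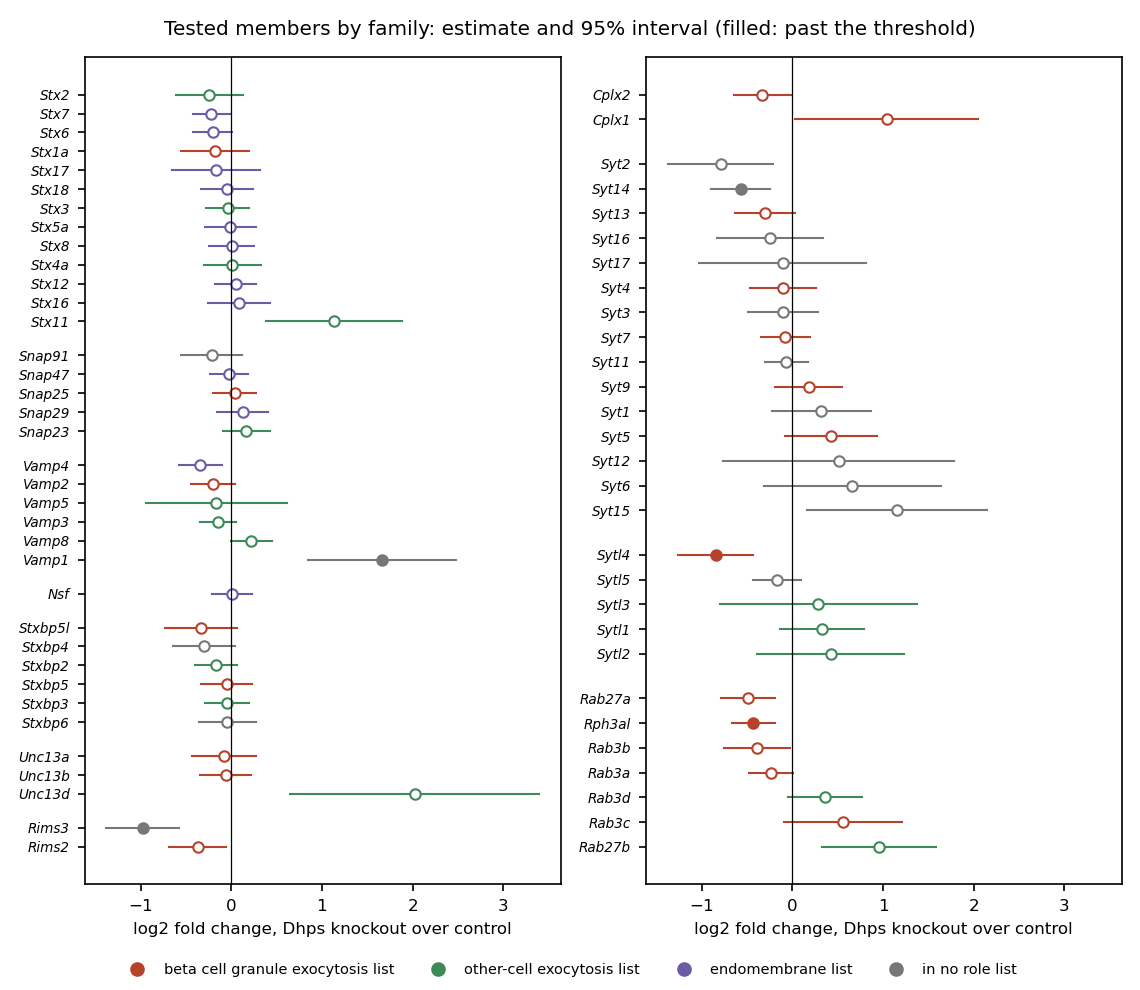
Log2 fold change of knockout-labelled over control libraries (x axis) for 65 tested members, grouped by family down the page, with 95% intervals as lines and filled points for members past the threshold. Colours give the role list. Sytl4, Rph3al, Rims3 and Syt14 are filled left of 0 and Vamp1 right of 0.

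In the list of 22 genes described for β cell granule release, all were tested, 3 fell (Sytl4 and Rph3al among them), 0 rose and 19 were not called. The 3 are 13.6% of the list, where edgeR called 2.63% of all tested genes lower. Of these 22, 17 had a negative log2 fold change, and the median was -0.19. In the list of paralogues better known from acinar, blood or epithelial cells, 16 of 17 were tested, none was called by edgeR, 10 were positive and the median was 0.19. At an unadjusted edgeR p under 0.05, 3 of those 16 were higher and 0 lower, where 3642 of all 13736 tested genes passed in either direction. DESeq2 called 2 of the 16 higher, Rab27b and Stx11, where it called 990 of all 13736 genes higher. Every knockout-labelled library lay below every control for 8 of the 22 granule-release genes and above for 0, against 1 below and 4 above among the 16 paralogues. As shares, 36.4% of the granule-release genes and 6.25% of the paralogues lay below, where 15.2% of all tested genes did, and 25% of the paralogues lay above, where 16.9% of all tested genes did. No test was made between the lists. They were drawn up with earlier results of these data known, so these shares describe the lists and give no independent evidence.

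Ratios of paralogues within a library do not depend on how libraries are scaled. Vamp8 is a VAMP of zymogen granules that β cells also use, and Vamp2 over Vamp8 had log2 ratios of counts per kb of 0.20, 0.089 and -0.15 in the knockout-labelled libraries, against 0.32, 0.38 and 0.73 in the controls, a difference of -0.43. For Rab3a over Rab3d the ratios were -0.42, -0.25 and -0.77 in the knockout-labelled libraries, against -0.14, 0.29 and 0.15 in the controls, a difference of -0.58. In both pairs each knockout-labelled library was below each control. Snap25 over Snap23 differed by -0.13, also with no overlap, though control 3, at 1.72, stood barely above the knockout-labelled libraries, at 1.71, 1.72 and 1.70. Unc13a over Unc13d differed by -2.16, which rests on the few Unc13d counts. Stx1a over Stx3 overlapped (-0.14). The exact two-sided permutation p was 0.1, the smallest that 3 against 3 libraries allow, for these 4 separated pairs and 0.5 for Stx1a over Stx3. Adjusted over the 6 pairs computed, these permutation p-values were 0.12 and 0.5, so none of them passed. Acinar markers were higher in every knockout-labelled library, as given above, and their part in these ratios was not tested.

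**Figure D3:**
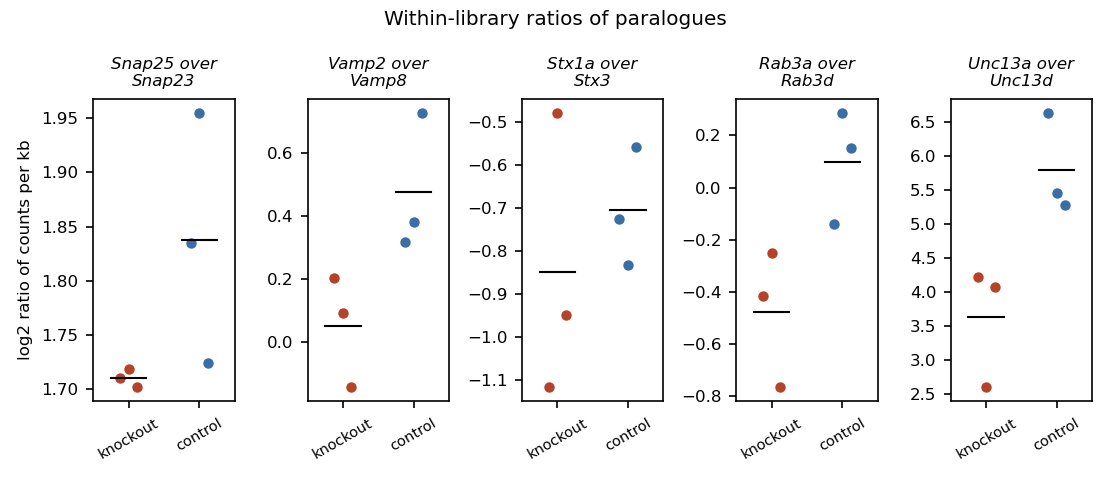
Log2 ratio of counts per kb of a granule-release gene over its paralogue (y axis, a separate scale in each panel), with knockout-labelled libraries left of controls, a point per library and a line at each mean. The knockout-labelled points lie below all control points in 4 of 5 panels, and overlap them for Stx1a over Stx3.

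Levels per kb ranked the machinery in much the same order in both groups. After Syt13, the knockout-labelled libraries had 77.9 ± 7.50 RPKM of Vamp2, 75.2 ± 3.62 of Vamp8, 74.3 ± 17.7 of Rab3d and 57.4 ± 4.61 of Snap47. The controls had 89.6 ± 5.40 of Vamp2, 64.6 ± 6.12 of Vamp8, 61.7 ± 6.56 of Rab3a and 58.4 ± 1.05 of Snap47 (SD, n = 3 each). The mean ± SD ranges of neighbours in these orders overlapped, apart from Vamp2 and Vamp8 in the controls. Sytl4 was the main synaptotagmin-like gene, with 74.7% of its family's level per kb, at 28.5 ± 8.17 in the knockout-labelled libraries and 51.2 ± 5.37 in the controls. Stx1a, by contrast, stood at 3.44 ± 0.538 RPKM in the knockout-labelled libraries and 3.89 ± 0.312 in the controls. That was below Stx3, at 6.17 ± 0.599 in the knockout-labelled libraries and 6.34 ± 0.366 in the controls, and below Stx4a, at 7.59 ± 0.274 in the knockout-labelled libraries and 7.53 ± 0.945 in the controls. Levels per kb rest on the exon lengths of the deposited table. Vamp8 was counted over 786 bp where GENCODE vM21 lists 2311 bp, and Snap25 over 2237 bp of 6791 bp, so orders between genes depend on these models.

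**Figure D4:**
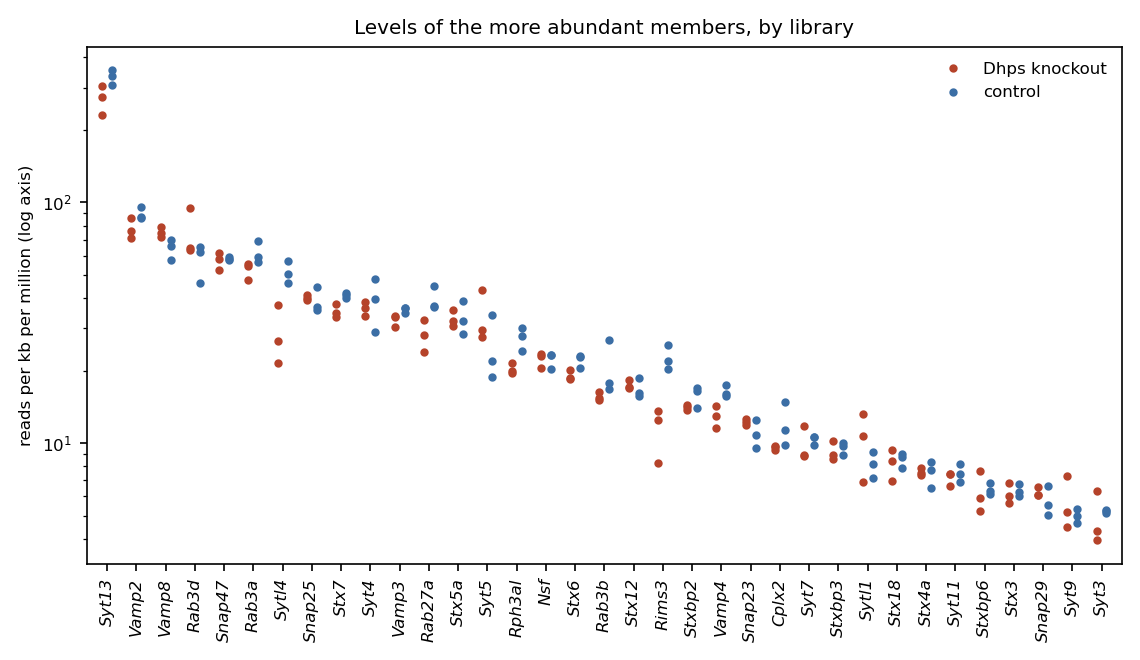
RPKM (y axis, log scale) of 35 members whose knockout-labelled and control means sum to at least 10, ordered from high to low, with knockout-labelled points left of control points for each gene and a point per library. Syt13 stands above all others, and Sytl4 and Rims3 show the widest gaps between the groups.

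Members with no count in any library were Syt8, Syt10, Cplx4 and Vamp7. A count of 0 allows up to 3 counts per library, which is 0.132 to 0.152 CPM in the knockout-labelled libraries and 0.119 to 0.139 CPM in the controls, for counting error only. Vamp7 was annotated only on an unlocalised scaffold of chromosome X, and whether reads there were kept is not given, so it is simply listed at 0.

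Other genes of the exocytosis pathway, outside the name pattern, were counted from lists of 74 genes, of which 70 were tested. With edgeR 3 fell and 1 rose, which is 5.71% against 6.76% of all tested genes. The 3 that fell belonged to the 31 tested docking and priming partners. They were Sv2a, a glycoprotein of synaptic vesicles and granules (97.0 ± 3.98 CPM in the knockout-labelled libraries and 133 ± 10.7 CPM in the controls, log2 fold change -0.46 ± 0.10, edgeR adjusted p = 0.0303), Madd, the exchange factor that activates Rab3 and Rab27 (115 ± 6.71 CPM in knockout-labelled and 152 ± 10.7 CPM in control libraries, -0.40 ± 0.10, adjusted p = 0.0438), and Cadps, the granule priming factor CAPS1 (63.7 ± 8.45 CPM in knockout-labelled and 86.7 ± 4.59 CPM in control libraries, -0.45 ± 0.11, adjusted p = 0.0448). The gene that rose was Myof, a ferlin of membrane repair in muscle and endothelium (7.58 ± 1.21 CPM in knockout-labelled and 3.51 ± 1.13 CPM in control libraries, 1.11 ± 0.25, adjusted p = 0.0339). Of the 11 endothelial markers edgeR called 4 higher, among them Pecam1 (0.74 ± 0.11, edgeR adjusted p = 0.0108) and Vwf (1.70 ± 0.26, edgeR adjusted p = 0.0131). Kdr and Flt1 of the same list were slightly negative (-0.016 and -0.0094), and the list's shares of counts overlapped between the groups. Pecam1, Vwf, Kdr and Flt1 were named after their values were seen. The part of endothelial RNA in the Myof values was not tested. None of 10 genes named for the exocyst, which tethers vesicles, passed with edgeR, DESeq2 or limma-voom. Of these, 1 was lower and 0 higher at an unadjusted edgeR p under 0.05. Nor did any gene in a list of 20 that joins the SNAP cofactors of Nsf, further SNAREs and the Sec1-like genes Scfd1, Scfd2, Vps33a, Vps33b and Vps45, with 1 lower and 2 higher at an unadjusted edgeR p under 0.05. Among the 31 docking and priming partners DESeq2 called 5 lower and 1 higher. Over all 13736 tested genes DESeq2 called 1702, of which 990 were higher, and 3642 had an unadjusted edgeR p under 0.05. For the 4 pathway genes that passed with edgeR, the groups did not overlap.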

How the data were processed

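Polyadenylated RNA from mouse islets was copied with SMART-Seq v4 from low input and sequenced from Ion Plus libraries, per the labels' protocols. The authors deposited whole-number read counts per gene for each of 6 libraries, not normalized, with exon coordinates and summed exon length. STAR 2.4.2a, featureCounts, Subread 1.5.0, edgeR and mm10 are named in the submitters' processing notes; strand and multi-mapping settings were not given there, so paralogues, overlapping genes and antisense partners may share reads.

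Computations used R 4.3.3 and edgeR 4.0.16: TMM factors, filterByExpr with its default settings, a quasi-likelihood model with group as the only term, and Benjamini-Hochberg adjustment over all 13736 genes tested (threshold 0.05). Standard errors come from the fold change and its F value. The procedure was tested on simulated data. Alternatives used DESeq2 1.42.0 and limma 3.58.1 (voom), other factors and filters, a replicate block and single libraries left out; exon overlaps used GenomicRanges 1.54.1. Levels per kb divide CPM by the deposited length. Libraries of a group differed beyond counting noise (chi-square per degree of freedom of 11.2 or more).

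A gene of the set, included in the counts, is not reported here. Members and lists were chosen with earlier results of these data known. Named genes were members past the threshold, the 10 largest changes at a mean log2 CPM of at least 2, the highest per kb in each family, a fixed set, and pathway genes past the threshold; any other is marked where it appears.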

Additional observations from a re-analysis of the deposited data

How the results depend on the processing

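The number of genes called was 929, and 1413 with no expression filter or 1702 with DESeq2, and from 64 to 968 with single libraries left out. Members called higher numbered 1, and 3 with no expression filter, 3 with DESeq2 and 0 with limma-voom (5 higher at an unadjusted p under 0.05; Vamp1 alone lost its call), and 0 to 2 with single libraries left out. Members called lower numbered 5, and 7 with no expression filter and 6 with DESeq2. They numbered 3 with upper-quartile factors, 3 with a replicate block, and 0 to 4 with single libraries left out. The cause was not tested. Genes at a few counts per library, such as Unc13d and Cplx3, are limited by depth. The median over members lay between -0.10 and -0.033 with single libraries left out. Same-numbered libraries did not deviate together (correlations of -0.04, -0.0069 and 0.05), so the numbers are not taken as pairs. Under the replicate block Rph3al lost its call (edgeR adjusted p = 0.0695). Pairing leaves the mean paralogue differences the same by construction, so their size is no check. Their sign-flip exact permutation p was 0.25 or 0.5. The smallest that 3 pairs allow is 0.25, so none could pass. No called member changed sign under the 14 settings. Of the 34 named members fitted under these settings, 9 changed sign, none of them called, and other members were not refitted one by one. With single libraries left out, Nsf ranged from -0.069 to 0.064, Snap25 from -0.038 to 0.14, Snap47 from -0.084 to 0.021, Stx3 from -0.12 to 0.0076, Stx4a from -0.097 to 0.091, Syt4 from -0.29 to 0.075, Syt9 from -0.044 to 0.32, Unc13a from -0.23 to 0.043 and Unc13b from -0.19 to 0.0025. With no expression filter Nsf was -0.014 and Stx4a -0.0075. Paralogue differences with single libraries left out ran from -0.51 to -0.30 for Vamp2 over Vamp8 and from -0.70 to -0.43 for Rab3a over Rab3d.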
